A study of Mus musculus with 26 samples.

Results

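The AP-1 and Bach transcription factors described here are 9 mouse genes chosen by symbol: Fos, Fosb, Fosl2, Jun, Junb, Jund, Atf3, Batf and Bach2. They are 9 of the 46517 gene symbols measured by bulk RNA sequencing in 26 libraries of sorted thymocytes. The thymocytes came from mice that carry a rearranged T cell receptor transgene restricted to MHC class I, which favours the CD8 lineage. TG6 mice, of genotype TG6tg H2b/d on a cross whose strain is given as C57/BL6 x B6.C-H2d/bByJ, have a receptor of low self-reactivity, F5 mice (F5tg Rag1KO, C57/BL6) one of intermediate and OT-1 mice (OT-1tg Rag2KO, C57/BL6) one of high self-reactivity. F5 and OT-1 mice lack a recombinase and cannot rearrange endogenous receptor genes, while TG6 mice can, so that the receptor, the recombinase genotype and the MHC background of a line cannot be told apart. From each line, 3 populations were sorted: early (CD4+CD8+, CXCR4+ without CCR7), late (still CD4+CD8+, but CCR7+ and CXCR4-) and mature (CD8+ cells that had lost CD4, also CCR7+ and CXCR4-). Each group has 3 libraries except TG6 late with 2. The series describes 3 mice per line, each sorted into these populations, and libraries of a line that share a replicate number are treated as coming from the same mouse.

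AP-1 is a dimer of basic leucine zipper proteins. Fos, Fosb and Fosl2 need a partner of the Jun family, whereas Jun, Junb and Jund can also pair with each other. Fos, Fosb, Jun and Junb are immediate-early genes, which are transcribed within minutes of receptor signalling through the MAP kinases, and in thymocytes a T cell receptor signal is a known inducer. Batf pairs with Jun proteins and joins Irf4 on DNA, Atf3 is a stress-induced member of the same superfamily, and Bach2 is a repressor that occupies AP-1 sites and restrains effector genes in T cells.

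The values are normalized counts as deposited, with totals of 16134786 to 18944173 per library. Fold changes are differences of log2(value + 1), tested with limma over all 16372 symbols that reached 10 in at least 2 libraries. A gene was called at an adjusted p (Benjamini-Hochberg) under 0.05. All 9 members passed the filter, but Atf3 was at 0 in 9 libraries, reached 10 in 7 and never exceeded 26. Thymocyte markers were present throughout, Cd3e at 4798 to 8667 and Cd8a at 15088 to 41213. Of markers of other cells, the epithelial Krt5 was at 0 in 24 libraries, whereas Epcam (10.2 to 47.7) and Psmb11 (8.88 to 42.3) were never at 0. The neutrophil gene S100a8 was at 0 in 21. Of the innate lymphoid and gamma delta list Ncr1 was at 0 in all 26 and Klrb1c reached at most 15.3, while Trdc ran from 1544 to 9991. The sum of this list, mostly Trdc, was lower in TG6 (1552 to 3144) than in F5 (6447 to 9991) and OT-1 (5258 to 8801). As F5 and OT-1 mice cannot rearrange endogenous receptor genes, Trdc does not mark gamma delta T cells in these lines. Macrophage markers were higher in the OT-1 libraries, with sums over 5 genes of 109 to 257 at the early stage, against 46.9 to 105 in TG6 and 43.5 to 105 in F5. At the late stage the sums were 104 to 163 in OT-1, 56.3 to 57.6 in TG6 and 41.2 to 54.2 in F5, and at the mature stage 119 to 144, 59.1 to 93.5 and 57.4 to 73.8. Sums of 3 dendritic cell genes were 53.7 to 143 in OT-1 early, against 19 to 39.5 in TG6 and 17.8 to 25.5 in F5, and at the mature stage they were highest in TG6 (73.4 to 163). The part of macrophages, dendritic cells and other such cells in the differences between lines was not tested. The targeted recombinase transcripts were still counted, Rag1 at 10835 to 16266 in F5 early and Rag2 at 176 to 291 in OT-1 early libraries, and a sum over a whole gene does not check a partial deletion. In bulk samples, fewer cells that express a gene and less RNA per cell cannot be told apart.

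Per kilobase of exon, Junb and Jund were the most abundant members, at 2486 and 2020 normalized counts per kb on average over the 26 libraries. Fos followed at 487, Bach2 at 240, Fosl2 at 177, Jun at 175, Batf at 115, Fosb at 51.0 and Atf3 at 2.74 normalized counts per kb. The order hides a wide range within genes. Fosl2 spanned 40.5 to 7725 normalized counts, a 191-fold range over the libraries, Fosb a 43.2-fold and Jun a 28.4-fold range. Jund spanned only 2.64-fold, the least of the 9. Group by group the order changed: Jund was above Junb in 4 of the 9 groups, as in TG6 early (2198 against 943 per kb) and OT-1 mature (2232 against 1774), and Bach2 was above Fos in TG6 late (525 against 84.2). The neighbours Fosl2 and Jun had group means of 9.38 to 550 and 26.7 to 337 per kb, and neither was above the other throughout.

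**Figure D1:**
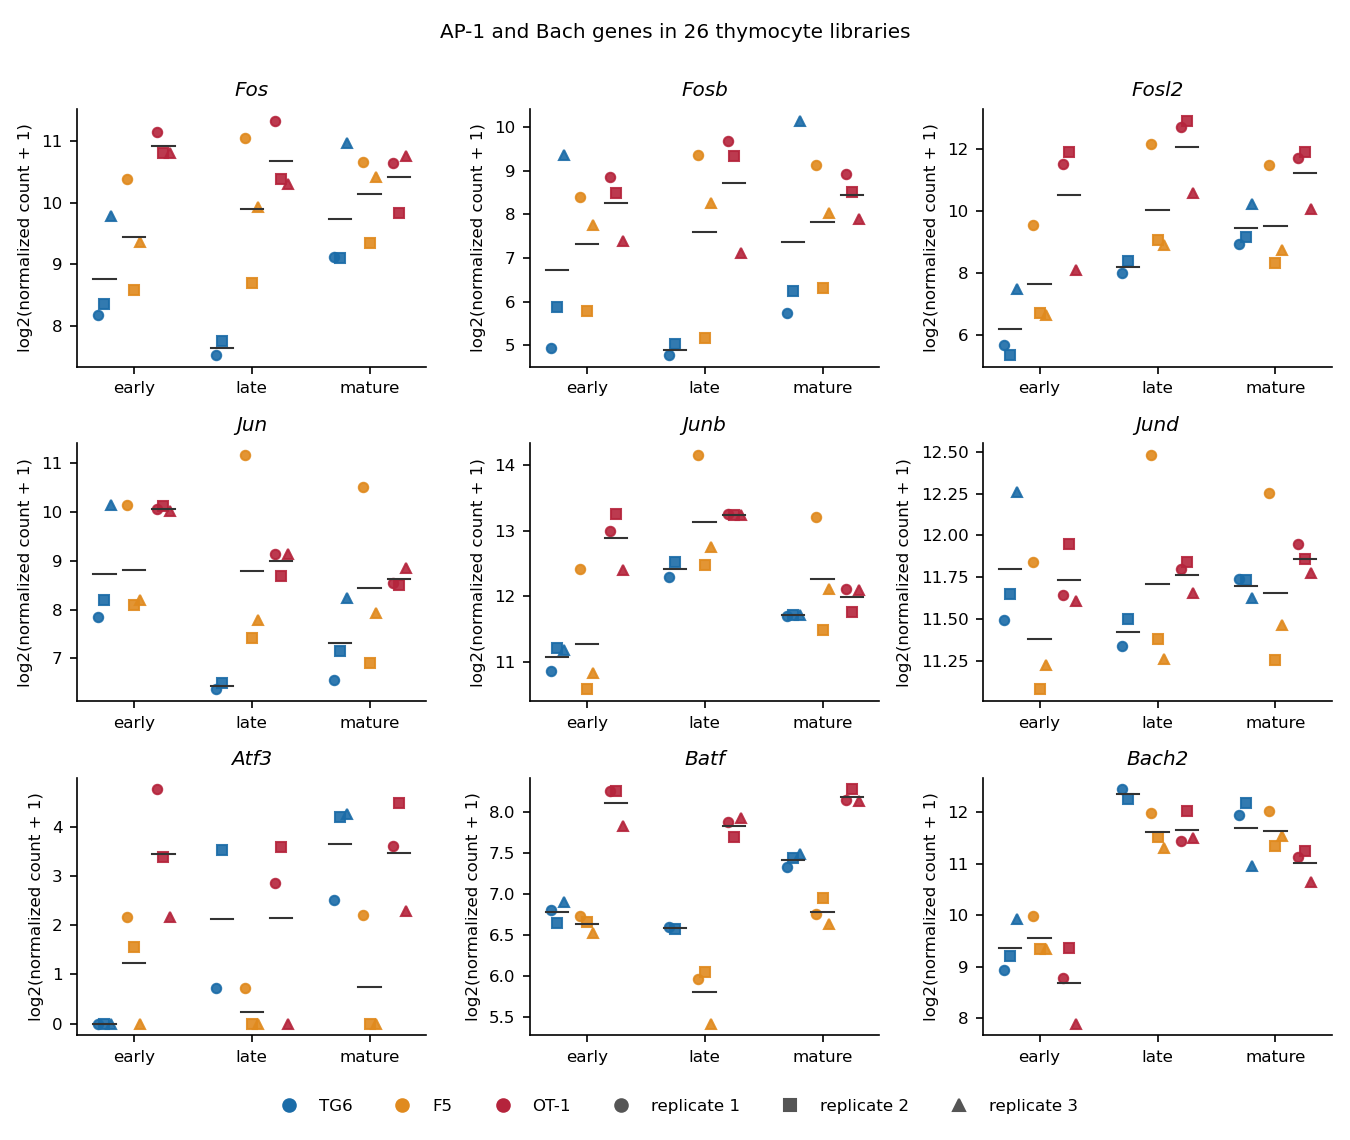
Each panel shows 1 gene as log2(normalized count + 1) on the vertical axis, by stage, with TG6 in blue, F5 in orange and OT-1 in red, symbols for the replicate number and bars for group means. Batf separates OT-1 from the other lines at every stage, Bach2 climbs from early to late in all 3 lines, and F5 replicate 1 (orange circles) lies at the top of its group for Fosl2, Jun, Junb and Jund.

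The first question was whether the line with high self-reactivity differed from that with low self-reactivity. At the early stage, OT-1 exceeded TG6 in 5 of the 9 members (Fos, Fosl2, Junb, Atf3 and Batf) and was lower in none, where 27.8% of all genes tested were called in either direction. The median log2 fold change of the 9 was 1.53, against 0.00 over all genes. At the late stage, 3 members were higher (Fos, Fosl2 and Batf), where 15.5% of genes were called, and at the mature stage only Batf was called, where 9.74% of genes were. At the mature stage the share of members called was thus near the background. The change of the OT-1 and TG6 difference between consecutive stages was called for none of the 9 with limma. For that interaction, 2.04% of all genes were called from early to late and 1.17% from late to mature, and the lowest adjusted p among members was 0.31 (Atf3, unadjusted p = 0.025) and 0.28 (Fos, unadjusted p = 0.013), each the only member with an unadjusted p under 0.05. With libraries of a mouse treated as a fixed block, 3 members and 8.90% of all genes were called in the late to mature interaction: Fosl2 (log2 -1.68 ± 0.17 SE, adjusted p = 0.0046), Fos (-1.73 ± 0.34, 0.029) and Junb (-0.56 ± 0.13, 0.048).

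**Figure D2:**
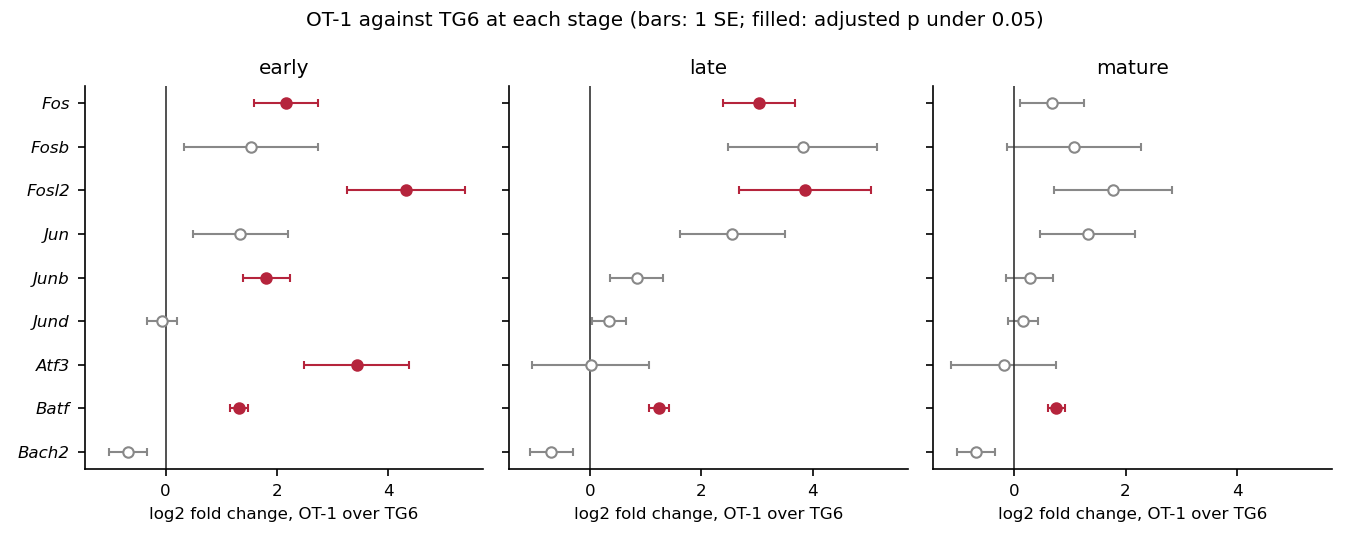
The horizontal axis gives the log2 fold change of OT-1 over TG6 from the limma fit at the early, late and mature stage, with bars of 1 SE, and filled red points are genes with an adjusted p under 0.05. Fosl2 and Fos lie far right at the early and late stages with wide bars, and Batf lies right with narrow bars at all 3 stages.

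Fos (chr12:85473890-85477273, plus strand, GRCm38) is the partner that gives AP-1 its strongest early activity. In TG6, Fos was at 286, 325 and 876 normalized counts in the early libraries, 183 and 214 in the late and 551, 550 and 2008 in the mature ones. In F5 it was at 1338, 382 and 656 early, 2133, 414 and 978 late, and 1615, 649 and 1361 mature. In OT-1 it was at 2273, 1792 and 1801 early, 2584, 1336 and 1257 late, and 1609, 912 and 1727 mature. All OT-1 libraries lay above all TG6 libraries at the early and late stages, and the groups overlapped at the mature stage. The difference was 4.47-fold early (log2 2.16 ± 0.58 SE, adjusted p = 0.0079) and 8.22-fold late (3.04 ± 0.65, adjusted p = 0.0023). The early call was lost without the libraries of TG6 replicate 1 (1.86 ± 0.66, adjusted p = 0.055). TG6 was lowest at the late stage and rose from late to mature (log2 2.10 ± 0.65, adjusted p = 0.023), a call that was lost without mature replicate 3 (log2 1.47, adjusted p = 0.13) and without late replicate 1 (adjusted p = 0.13) or 2 (0.098). F5 was also above TG6 at the late stage (log2 2.26 ± 0.65, adjusted p = 0.044), where 2 members and 4.97% of all genes were called. That call was lost without F5 late replicate 1 (log2 1.68, adjusted p = 0.18), without F5 late replicate 3 (adjusted p = 0.096) and without either TG6 late library (0.27 and 0.20), and the value was 2.86 without F5 late replicate 2.

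The promoter of Fos and that of Jun are shown because both genes are known to respond to the same signals, and their deviations from the group means correlated at 0.81 over the 26 libraries. They are the 150 bases before the start of transcription in the RefSeq promoter table (GRCm38.p6), Fos at chr12:85473740-85473889 on the plus strand and Jun at chr4:95052223-95052372 on the minus strand. Capitals mark TATAAA and the cyclic AMP response element core TGACG in Fos, and the AP-1-like letters TGACATCA in Jun.
Fos: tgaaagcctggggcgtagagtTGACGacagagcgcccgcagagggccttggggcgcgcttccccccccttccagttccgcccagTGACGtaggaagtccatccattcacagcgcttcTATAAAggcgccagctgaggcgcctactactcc
Jun: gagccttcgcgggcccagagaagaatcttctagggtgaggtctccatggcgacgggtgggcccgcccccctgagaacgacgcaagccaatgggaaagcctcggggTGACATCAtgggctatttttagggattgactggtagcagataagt
All 9 members had an entry of 300 bases in that table, and both strands were read. The AP-1 letters TGAGTCA were in 0 of the 9 promoters and in 5.20% of all 32851 promoters, and TGACGTCA was in 0 and in 1.79%. The shorter TGACG, which is part of TGACGTCA, was in 5 of 9 (Fos, Fosb, Junb, Atf3 and Batf) against 20.8% of all promoters. TGACATCA was in Jun alone among the 9, with its first base 45 before the start, and in 3.62% of all promoters. TATAAA was in 2 of the 9, Fos at 33 before the start and Junb at the start itself, against 13.6% of all promoters. GGAA, the core of Ets sites, was in 9 of 9 and in 96.0% of all.

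Fosb (chr7:19302696-19310051, minus strand), a Fos relative with the same partners, differed widely between mice. Its TG6 values were 29.7, 57.6 and 657 early, 26.4 and 31.5 late, and 52.5, 74.2 and 1141 mature. F5 gave 339, 54.2 and 215 early, 657, 35.1 and 304 late, and 566, 78.4 and 261 mature. OT-1 gave 464, 360 and 168 early, 828, 648 and 137 late, and 485, 367 and 239 mature. With all libraries no comparison of lines or stages called Fosb. The largest difference was OT-1 over TG6 at the late stage, without overlap (log2 3.82 ± 1.34 SE, adjusted p = 0.058). It was called in 4 of 19 alternatives, with the lowest adjusted p (0.034) in a fit on those groups alone and 0.038 without OT-1 late replicate 3. The early difference was called without TG6 replicate 3 (2.84 ± 1.02, adjusted p = 0.040).

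Fosl2 (chr5:32135801-32157842, plus strand), which encodes Fra-2, had the largest fold difference between OT-1 and TG6 at each stage among the members above 0 in all libraries. Fosl2 in TG6 was at 51.0, 40.5 and 181 early, 257 and 338 late, and 486, 579 and 1213 mature. In F5 the values were 755, 105 and 101 early, 4592, 533 and 478 late, and 2896, 321 and 431 mature. In OT-1 they were 2952, 3825 and 277 early, 6731, 7725 and 1526 late, and 3320, 3870 and 1081 mature. OT-1 replicate 3 was the lowest OT-1 library at all 3 stages, yet at the early and late stages it remained above every TG6 library. OT-1 exceeded TG6 by 20.0-fold early (log2 4.32 ± 1.06 SE, adjusted p = 0.0044) and by 14.5-fold late (3.86 ± 1.19, adjusted p = 0.031), and the late call was lost in 4 of 5 fits that left out 1 library (without either TG6 library, 0.17 and 0.13, or OT-1 replicate 1 or 2, 0.096 and 0.099). The early call held in each fit that left out 1 library, with log2 values from 3.63 (without OT-1 early replicate 2) to 4.98 (without TG6 early replicate 3) and 5.52 (without OT-1 early replicate 3), and the late value was 4.61 without OT-1 late replicate 3. At the mature stage the difference was 3.44-fold and missed the threshold (adjusted p = 0.30). From early to late Fosl2 was higher on average in all 3 lines, by log2 2.01 in TG6, 2.39 in F5 and 1.55 in OT-1, with adjusted p of 0.25, 0.10 and 0.31. With the mouse as a fixed block these steps were called in all 3 lines (adjusted p = 0.020, 0.0059 and 0.028).

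Jun (chr4:95049034-95052222, minus strand, a gene with 1 exon union of 3189 bases) encodes c-Jun. TG6 libraries had 229, 291 and 1134 early, 81.2 and 89.5 late, and 92.9, 141 and 301 mature. F5 libraries had 1125, 271 and 292 early, 2311, 169 and 218 late, and 1468, 119 and 242 mature. OT-1 libraries had 1064, 1123 and 1034 early, 565, 409 and 565 late, and 373, 360 and 462 mature. The OT-1 libraries were close to each other at every stage, while F5 at each stage, and TG6 at the early and mature stages, held 1 mouse that was higher than the others. OT-1 lay above TG6 without overlap at the late stage (log2 2.56 ± 0.95 SE, adjusted p = 0.075) and the mature stage (1.32 ± 0.85, adjusted p = 0.35), and neither was called. A fit on the late groups alone called the late difference (adjusted p = 0.0026). From early to late all values were lower in TG6 (log2 -2.30 ± 0.95, adjusted p = 0.085) and in OT-1 (-1.08 ± 0.85, adjusted p = 0.39), without a call. With the mouse as a fixed block both steps were called (-1.59 ± 0.12, adjusted p = 0.015, and -1.08 ± 0.14, adjusted p = 0.0095), and with a random block the TG6 step was (-2.04 ± 0.70, adjusted p = 0.030). The F5 step was -0.02 ± 0.85.

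Junb (chr8:84974484-84978718, minus strand), which can oppose c-Jun on some targets, had its highest group mean at the late stage in all 3 lines. In TG6 it was at 1852, 2356 and 2304 early, 5019 and 5909 late, and 3321, 3358 and 3340 mature. In F5 it was at 5438, 1526 and 1820 early, 18304, 5715 and 6895 late, and 9503, 2871 and 4407 mature. In OT-1 it was at 8138, 9749 and 5429 early, 9815, 9724 and 9663 late, and 4415, 3474 and 4357 mature. All OT-1 libraries were above all TG6 libraries at each stage. The difference was called at the early stage, by 3.50-fold (log2 1.81 ± 0.42 SE, adjusted p = 0.0031), and not at the late (0.84 ± 0.47, adjusted p = 0.25) or mature stage (0.28 ± 0.42, adjusted p = 0.72). The late difference was called in a fit on those groups alone (adjusted p = 0.005). The early to late rise was called in F5 (log2 1.86 ± 0.42, adjusted p = 0.0022) and TG6 (1.34 ± 0.47, adjusted p = 0.043) but not in OT-1 (0.37 ± 0.42, adjusted p = 0.58), and the difference of this step between OT-1 and TG6 was not called (-0.97 ± 0.64, adjusted p = 0.63). From late to mature Junb fell in OT-1 (-1.26 ± 0.42, adjusted p = 0.035). The TG6 rise and the OT-1 fall missed the threshold in each fit that left out 1 of their libraries (adjusted p of 0.067 to 0.21 and 0.062 to 0.10).

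Jund (chr8:70698949-70700616, plus strand), the constitutive Jun protein, was the steady member. Group means ran from 2744 ± 211 (SD, n = 2) in TG6 late to 3723 ± 222 (SD, n = 3) in OT-1 mature libraries. With all libraries no comparison of lines or stages called it. The log2 fold change between OT-1 and TG6 was -0.07 ± 0.27 SE early, 0.34 ± 0.30 late and 0.16 ± 0.27 mature. The highest single values were 5715 and 4889, in the late and mature libraries of F5 replicate 1, and 4901 in TG6 early replicate 3.

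Atf3 (chr1:191170296-191218039, minus strand) was close to the limit of detection. It was listed at 0 in all 3 TG6 early libraries and at 26.0, 9.38 and 3.50 in the OT-1 early libraries (adjusted p = 0.0093). Without OT-1 early replicate 1 that call was lost (adjusted p = 0.059). That library and OT-1 early replicate 2, where Atf3 was at 9.38, had the highest macrophage sums (257 and 239 over 5 genes). Lyz2 (93.9 against 62.3) and Csf1r (42.8 against 32.5) were higher in replicate 1, and Adgre1 (14.6 against 18.6), C1qa (25.0 against 28.1) and Cd68 (81.2 against 97.3) in replicate 2. The part of macrophages in the Atf3 value was not tested. At the mature stage Atf3 was at 4.71, 17.3 and 18.0 in TG6, at 3.62, 0 and 0 in F5, and at 11.2, 21.4 and 3.87 in OT-1. The mature OT-1 libraries were all above those of F5 (adjusted p = 0.041), a call lost in 4 of 6 fits that left out 1 library (highest adjusted p = 0.16, without OT-1 mature replicate 2), and it was larger without F5 mature replicate 1 (log2 3.46 in place of 2.72) or OT-1 mature replicate 3 (3.31). With a random mouse block Atf3 was also lower in F5 than in TG6 at the mature stage (log2 -2.92 ± 0.87 SE, adjusted p = 0.048).

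Batf (chr12:85686669-85709087, plus strand) was the member that marked OT-1 at each stage. Its TG6 values were 111, 99.4 and 118 normalized counts early, 95.9 and 94.4 late, and 160, 172 and 178 mature. Its F5 values were 105, 99.6 and 91.2 early, 61.3, 65.2 and 41.8 late, and 107, 123 and 98.3 mature. Its OT-1 values were 303, 303 and 226 early, 234, 205 and 241 late, and 281, 308 and 278 mature. No OT-1 library overlapped the TG6 or F5 libraries of its stage. Over TG6, OT-1 was higher by 2.5-fold early (log2 1.32 ± 0.16 SE, adjusted p = 3.0e-06), 2.36-fold late (1.24 ± 0.18, adjusted p = 5.0e-05) and 1.70-fold mature (0.76 ± 0.16, adjusted p = 0.0043). Over F5 it was higher by 2.77-fold early (1.47 ± 0.16), 4.05-fold late (2.02 ± 0.16, adjusted p = 8.9e-09) and 2.63-fold mature (1.40 ± 0.16). These 6 calls held in each fit that left out 1 library, and the mature call against TG6 was lost in a fit on those groups alone (adjusted p = 0.061). The macrophage sums given above were likewise higher in OT-1 at each stage, without overlap with TG6 or F5, and their part in Batf was not tested. F5 was lower than TG6 at the late stage (log2 -0.78 ± 0.18, adjusted p = 0.012) and the mature stage (-0.63 ± 0.16, adjusted p = 0.019), where it was the only member called and 6.64% of all genes were. The late call was lost in 3 of 5 fits that left out 1 library (without F5 late replicate 3, or either TG6 late library), and the mature call in 3 of 6 (without TG6 mature replicate 2, or F5 mature replicate 1 or 3).

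Across stages, Batf changed most clearly in F5. It fell there from early to late (log2 -0.83 ± 0.16 SE, adjusted p = 0.00059) and rose again from late to mature (0.97 ± 0.16, adjusted p = 0.00017), in both cases without overlap. TG6 rose from late to mature (0.83 ± 0.18, adjusted p = 0.0023). With the mouse as a fixed block these 3 steps missed the threshold (adjusted p = 0.055, 0.052 and 0.068). OT-1 gave -0.28 ± 0.16 and 0.35 ± 0.16 for the same steps, neither called.

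Bach2 (chr4:32238804-32586108, plus strand) had the most uniform change across stages. In TG6 it was at 490, 589 and 971 normalized counts early, 5565 and 4881 late, and 3927, 4599 and 1978 mature. In F5 it was at 1011, 644 and 645 early, 4070, 2929 and 2527 late, and 4140, 2610 and 2956 mature. In OT-1 it was at 439, 660 and 236 early, 2783, 4171 and 2882 late, and 2239, 2430 and 1603 mature. Every late library was above every early library in all 3 lines. The rise was 7.95-fold in TG6 (log2 2.99 ± 0.38 SE, adjusted p = 3.8e-06), 4.15-fold in F5 (2.05 ± 0.34, adjusted p = 0.00011) and 7.86-fold in OT-1 (2.97 ± 0.34, adjusted p = 2.5e-06), and it was called under each alternative tried. The step of OT-1 did not differ from that of TG6 (log2 -0.02 ± 0.51). From late to mature no line was called, and the OT-1 value (-0.65 ± 0.34) was called only with the mouse as a fixed block (-0.65 ± 0.12, adjusted p = 0.026).

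No comparison of lines called Bach2 at any stage. OT-1 against TG6 gave log2 -0.68 ± 0.34 SE early, -0.69 ± 0.38 late and -0.68 ± 0.34 mature, with adjusted p of 0.15, 0.24 and 0.22. The late libraries did not overlap, all OT-1 values being below the TG6 values, and the F5 late values were also all below them (-0.74 ± 0.38, adjusted p = 0.36). The largest difference between lines was OT-1 against F5 early (-0.87 ± 0.34, adjusted p = 0.10), which was called without OT-1 early replicate 2 (-1.22 ± 0.35, adjusted p = 0.038). At the mature stage Bach2 was lower in OT-1 once TG6 mature replicate 3 was left out (log2 -1.05 ± 0.35, adjusted p = 0.030). That library held more Rag1 (5265 against 696 and 620) and more Gzma (1633 against 236 and 240) than the other TG6 mature libraries. At the early stage it was lower in OT-1 without OT-1 early replicate 2 (-1.02 ± 0.35, adjusted p = 0.047).

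**Figure D3:**
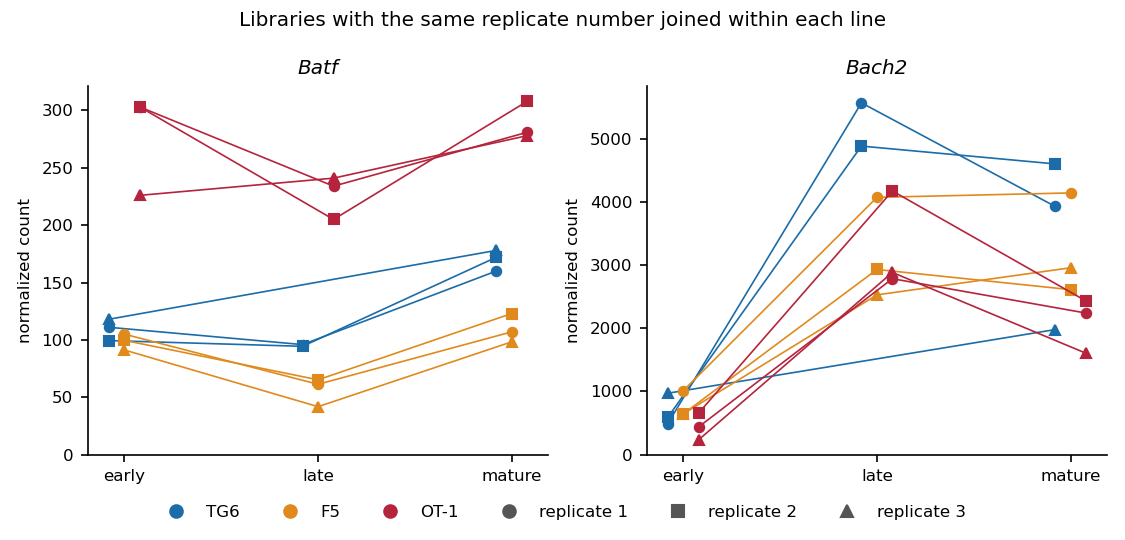
Normalized counts of Batf (left) and Bach2 (right) on linear axes from 0 are plotted at the 3 stages, with lines in blue (TG6), orange (F5) and red (OT-1) joining libraries of 1 replicate number. All OT-1 values of Batf lie above all other lines at each stage, from 205 to 308, and Bach2 rises from early to late in each mouse that has both libraries.

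Across stages the share of members called was near or below that of all genes, except for F5 from early to late. From early to late, 2 members were called in TG6 (Junb and Bach2), 3 in F5 (Junb, Bach2 and Batf) and 1 in OT-1 (Bach2), where 25.4%, 26.7% and 26.7% of all genes were called. From late to mature, 2 were called in TG6 (Fos and Batf), 1 in F5 (Batf) and 1 in OT-1 (Junb), where 22.3%, 20.5% and 24.4% were called. With the mouse as a fixed block the counts were 5 in TG6 and 3 in OT-1 from early to late, where 23.2% and 31.5% of all genes were called, and 3 in OT-1 from late to mature (Fosl2, Junb and Bach2), where 31.2% were. The random block gave 2 in F5 from late to mature, where 28.5% of genes were called, Junb being added (log2 -0.86 ± 0.30 SE, adjusted p = 0.036). In TG6 the fixed block rests on 2 pairs of libraries, whose late titles differ in stem from the others, so that a shared replicate number may not mean a shared mouse there. It added Fos from early to late (-0.62 ± 0.09, adjusted p = 0.036) and Fosl2 and Junb from late to mature (0.85 ± 0.08 and -0.71 ± 0.07, adjusted p = 0.031 and 0.032).

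Libraries of the same mouse deviated together in most of the family. A test of replicate number within line, chosen after the values were seen, called 7 of the 9 members (Fos, Fosb, Fosl2, Jun, Junb, Jund and Atf3), where 16.9% of all genes were called. Replicate number held 94.2% of the variance of Fosl2 within groups, 91.6% for Jun, 91.5% for Junb, 90.4% for Fosb, 87.2% for Fos, 83.1% for Jund and 74.8% for Atf3, against a median of 51.6% and an upper decile of 76.1% over all genes. Batf (52.6%, adjusted p = 0.39) and Bach2 (51.8%, adjusted p = 0.15) were at the median of all genes. Without F5 replicate 1, where 7.62% of all genes were called, the test still called Fos, Fosb, Fosl2 and Jun, but no longer Junb (adjusted p = 0.31), Jund (0.39) or Atf3 (0.087).

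F5 replicate 1 was the highest F5 library at all 3 stages for each of the Fos and Jun genes. Fosl2 in that mouse exceeded the mean of the other F5 libraries 7.34-fold early, 9.08-fold late and 7.70-fold mature, Jun 4.0-fold, 12.0-fold and 8.14-fold, and Junb 3.25-fold, 2.90-fold and 2.61-fold. Fos was raised 2.58-fold, 3.07-fold and 1.61-fold, Fosb 2.52-fold, 3.88-fold and 3.34-fold, and Jund 1.61-fold, 2.23-fold and 1.86-fold. Of the sort markers, Ccr7 and Cxcr4 moved with it. Ccr7 in this mouse was at 7609 late against 2698 and 3615 in the other F5 libraries, and at 10870 mature against 3958 and 5767. The mean log2 deviations of this mouse were 0.71 for Ccr7, -0.54 for Cxcr4, -0.30 for Cd4 and -0.11 for Cd8a. Rag1, which was not used for the sort, deviated by -1.11 in this mouse and by 1.27 in F5 replicate 2. The part of these genes in the Fos and Jun values was not tested. TG6 replicate 3, sequenced at the early and mature stages only, was raised in part of the same Fos and Jun genes. Its mean log2 deviation from the group mean was 2.71 for Fosb, 1.17 for Jun, 1.13 for Fos and 1.05 for Fosl2, but 0.05 for Junb and 0.19 for Jund. Of the macrophage genes, Lyz2 (1.80), C1qa (1.19), Csf1r (0.88) and Adgre1 (0.40) deviated upwards in the same mouse, and Cd68 (-0.02) did not. C1qa was near the floor in it, at 4.84 early and 3.95 mature. This mouse also deviated upwards in Rag1 (1.0) and Cd4 (0.75), and in 8 of 11 other immediate-early genes (Nr4a1 1.44). In it Egr1 (-0.61), Egr2 (-1.31) and Egr3 (-0.52) deviated downwards. OT-1 replicate 3 was low in Fosl2 (-1.68), Atf3 (-1.53) and Fosb (-1.0) while Jun (0.11) and Fos (-0.05) were near the mean. Its erythroid sums were 689, 584 and 642 from early to mature, against 39.6 to 193 in the other OT-1 libraries, its macrophage sums were 109 early (257 and 239 in the others), 133 late (104 and 163) and 144 mature (130 and 119), and Cxcr4 (0.77), Rag1 (0.75) and Cd4 (0.63) deviated upwards. Which sorter, day or handling each mouse had is not given in the labels. The part of these, and of the cells behind the markers, in these values was not tested.

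**Figure D4:**
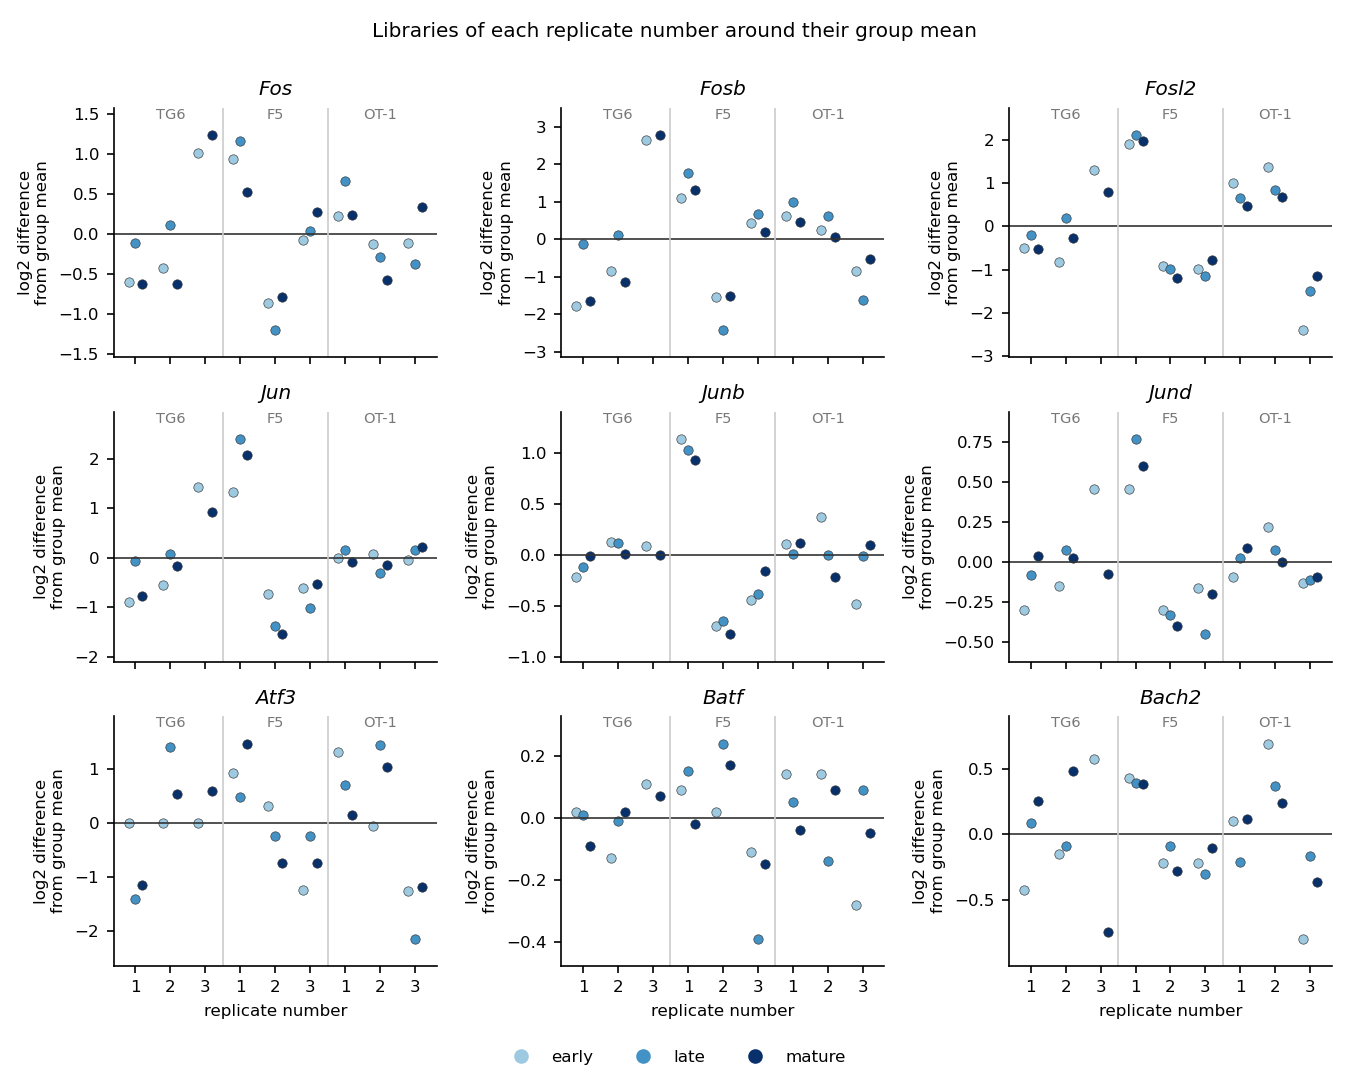
The vertical axis is the log2 difference of a library from the mean of its group, and the horizontal axis the replicate number within TG6, F5 and OT-1, with shades of blue for the stage. For Fosl2, Jun, Junb and Jund the 3 stages of F5 replicate 1 lie together above 0, whereas the points of Batf show less grouping by mouse.

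The comparison of OT-1 with F5 is given with and without that F5 mouse. With all libraries, 2 members were higher in OT-1 at the early stage (Junb and Batf), 1 at the late stage (Batf) and 2 at the mature stage (Atf3 and Batf), where 12.7%, 24.0% and 23.3% of all genes were called. Junb early (log2 1.61 ± 0.42 SE, adjusted p = 0.014) overlapped between the lines, since F5 replicate 1 (5438) was above OT-1 replicate 3 (5429), and it missed the threshold without any of F5 early replicates 2 and 3 and OT-1 early replicates 1 and 2 (highest adjusted p = 0.10). Without the 3 libraries of F5 replicate 1, an alternative chosen after the values were seen, 6 members were higher in OT-1 early, 5 late and 4 mature, where 13.8%, 25.7% and 19.4% of all genes were called. Because this mouse was left out for being the highest F5 library in these genes, a larger difference and a smaller spread follow from the choice, and the values are a description that supports nothing further. Fosl2 was then called at all 3 stages, with log2 fold changes of 3.82 ± 0.91, 3.09 ± 0.91 and 2.69 ± 0.91 (adjusted p = 0.0077, 0.017 and 0.044). Jun was called early (1.93 ± 0.50, adjusted p = 0.015) and late (1.40 ± 0.50, adjusted p = 0.048), and Jund at all 3 stages by 0.44 to 0.58. With the random mouse block and all libraries, Fosl2 was called at the early stage (2.86 ± 0.88, adjusted p = 0.034).

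F5 differed from TG6 in Fos and Batf late and in Batf mature, as given above. At the late stage Fosb (6.48-fold), Jun (5.12-fold) and Fosl2 (3.57-fold) were also above TG6 without overlap, and none was called (adjusted p = 0.34, 0.20 and 0.51). F5 late replicate 1 raised these folds, with Jun at 2311 against 169 and 218 in the other F5 late libraries. Fosl2 was at 4592 in it against 533 and 478, and Fosb at 657 against 35.1 and 304. No member was called at the early stage, where 6.46% of all genes were called by limma, and no member reached an unadjusted p under 0.05. The largest log2 fold change was 1.46 ± 1.06 SE (Fosl2), with F5 early replicate 1 at 755 against 105 and 101 in the other F5 early libraries. Without F5 replicate 1 at all stages, Jund was lower in F5 early (log2 -0.65 ± 0.16, adjusted p = 0.023), and Fos was no longer called at the late stage (1.68 ± 0.61, adjusted p = 0.15).

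**Figure D5:**
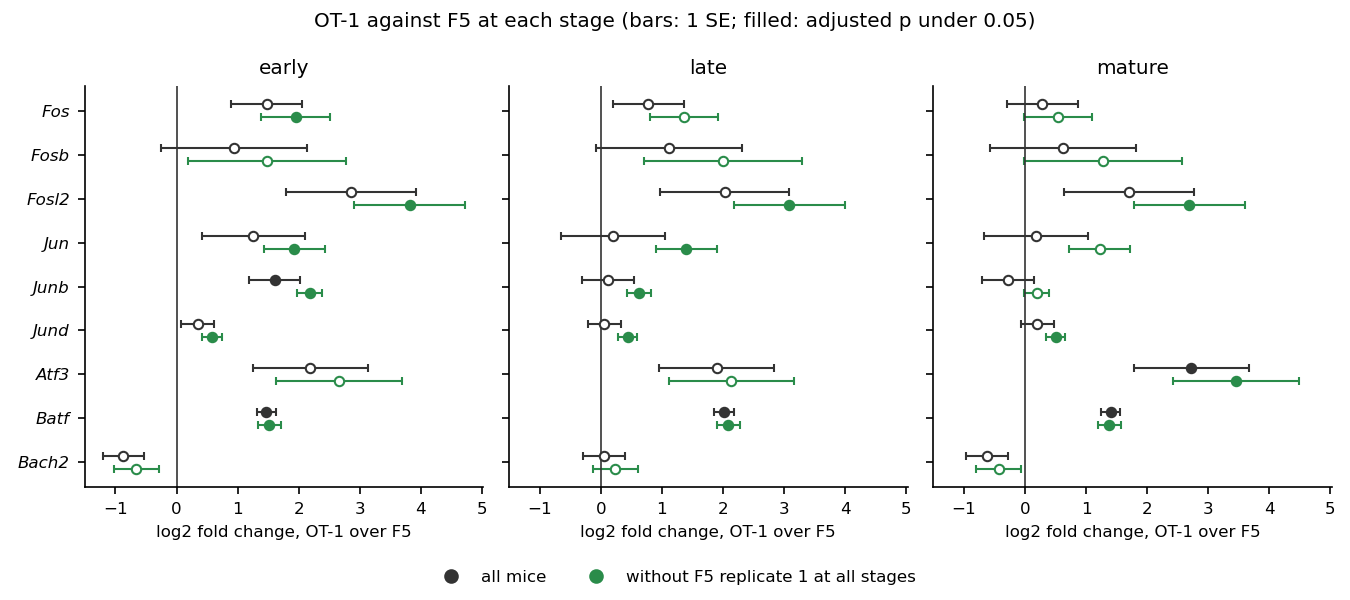
The log2 fold change of OT-1 over F5 is given on the horizontal axis at each stage with all mice (black) and without the 3 libraries of F5 replicate 1 (green), with bars of 1 SE and filled points for an adjusted p under 0.05. Fosl2, Jun, Junb and Jund move right without that mouse at every stage, and Batf stays where it was.

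The pathway around the family was read from lists of genes. Of 16 upstream kinases and factors tested, 4 were called at the early stage, a share near the 27.8% of all genes. OT-1 exceeded TG6 early in 3 (Rasgrp1, Prkcq and Srf) and was lower in 1 (Elk4). Prkcq, the protein kinase C of the T cell receptor, was at 9655 against 5138 normalized counts on average (log2 0.91 ± 0.10 SE, adjusted p = 5.5e-07). At the late stage 1 of 16 was called lower (Elk4, log2 -0.53 ± 0.12, adjusted p = 0.0027), and at the mature stage 1 was higher (Rasgrp1, 0.33 ± 0.10, adjusted p = 0.037), where 15.5% and 9.74% of all genes were called. The median of the list was 0.13 early, -0.01 late and 0.06 mature, close to 0.00, 0.00 and -0.01 over all genes.

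Of the 5 factors that bind DNA beside AP-1, 4 had more RNA in OT-1 early than in TG6 early (Nfatc1, Nfatc2, Irf4 and Irf8) and Nfatc3 had less, where 27.8% of all genes were called. At the late and mature stages 2 of 5 were higher (Irf4 and Nfatc2), where 15.5% and 9.74% were called. Irf4, the partner of Batf, was higher in OT-1 at each stage, at 194 against 85.0 normalized counts early (log2 1.18 ± 0.28 SE, adjusted p = 0.0031), 1639 against 294 late (2.44 ± 0.31, adjusted p = 8.5e-06) and 1629 against 407 mature (1.99 ± 0.28, adjusted p = 5.2e-05). Against F5 the Irf4 difference reached log2 4.55 ± 0.28 late (adjusted p = 1.3e-10). Irf4 and Batf thus shared their order at the late and mature stages, OT-1 above TG6 above F5, with each of these pairs called. Irf4 rose from early to late in all 3 lines, by log2 1.78 ± 0.31 in TG6, 0.90 ± 0.28 in F5 and 3.03 ± 0.28 in OT-1 (adjusted p = 0.00015, 0.019 and 1.3e-07), and the steps of OT-1 and TG6 were not called different (1.25 ± 0.42, adjusted p = 0.16).

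Of 6 effector genes that passed the filter, OT-1 exceeded TG6 early in 2 (Gzma and Maf), and in 3 at the late and mature stages (Gzma, Nfil3 and Maf), where 27.8%, 15.5% and 9.74% of all genes were called. Maf was at 682 against 69.7 normalized counts at the mature stage (log2 3.27 ± 0.32 SE, adjusted p = 4.0e-07) and Nfil3 at 176 against 34.3 (2.39 ± 0.60, adjusted p = 0.013). From early to late 2 of the 6 were lower in TG6, 1 in F5 and 1 in OT-1, where 25.4%, 26.7% and 26.7% of all genes were called. Gzma fell in all 3 lines, by log2 -2.89 ± 0.60 in TG6, -3.46 ± 0.53 in F5 and -1.58 ± 0.53 in OT-1 (adjusted p = 0.0008, 4.2e-05 and 0.031), and Nfil3 fell in TG6 (-2.70 ± 0.67). Gzma rose again from late to mature in TG6 (2.83 ± 0.60) and F5 (3.77 ± 0.53). The TG6 value was raised by mature replicate 3, at 1633 against 236 and 240 in the other TG6 mature libraries.

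Of 11 other immediate-early genes, OT-1 early exceeded TG6 early in 3 (Egr1, Ier2 and Dusp1) with Btg2 lower, where 27.8% of all genes were called. At the late stage 4 of 11 were higher (Egr1, Nr4a1, Ier2 and Zfp36), where 15.5% of genes were called, and at the mature stage none was called. Nr4a1, which encodes Nur77, was at 9305 against 1646 normalized counts late (log2 2.38 ± 0.77 SE, adjusted p = 0.040), and Ier2 at 1659 against 536 (1.62 ± 0.51, adjusted p = 0.035). All 11 were called for replicate number. In F5 replicate 1, 8 of the 11 lay above the group mean over the stages, with a median log2 deviation of 0.68, led by Klf6 (1.28), Nr4a1 (1.06), Ier2 (0.99) and Dusp1 (0.97), and Egr1 (-0.26), Egr2 (-0.20) and Egr3 (-0.25) lay below it. Of 6 heat shock genes, 2 were called for replicate number (Hspa1a and Hsph1). Hspa1a was 1.55 above the group mean in TG6 replicate 3, where 5 of the 6 genes were above it, 1.07 above in OT-1 replicate 3, where all 6 were, and at -1.05 in F5 replicate 1, where 2 were above. Hspa1a values were low, at 6.82, 2.04 and 4.04 in F5 replicate 1. In OT-1 early 2 of the 6, Hspa8 and Hsp90aa1, were higher than in TG6 (1.24 ± 0.16 and 0.87 ± 0.25), a share near the 27.8% of all genes. Of 9 further leucine zipper genes, 1 was lower in OT-1 early than in TG6 (Atf7, -0.62 ± 0.15) and 1 was higher late (Jdp2, 2.56 ± 0.80), where 27.8% and 15.5% of all genes were called. Jdp2 was at 39.7, 31.7 and 34.8 in OT-1 late and at 0.993 and 18.0 in TG6 late, so the size of its difference rests largely on TG6 late replicate 1. For replicate number 4 of the 9 were called (Atf7, Bach1, Mafk and Maff), against 16.9% of all genes.

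With the group means removed, the log2 values of the Fos and Jun genes in the 26 libraries correlated from 0.55 (Fosb and Junb) to 0.91, at 0.91 for Jun and Jund, 0.90 for Fos and Fosb, 0.88 for Junb and Jund, 0.84 for Jun and Junb and 0.82 for Fosl2 and Jund, but at 0.61 for Fos and Fosl2 and for Fosb and Jund. Batf correlated at 0.00 (Fosb) to 0.44 (Fosl2) with these 6 genes, and Bach2 at 0.11 (Fos) to 0.69 (Fosl2). These are descriptions over libraries that share mice.

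Genes with the most similar pattern, among 9898 with a mean of at least 100, differed between members. Closest to Fos over the 26 libraries were Kctd12, Ier2 and Acbd6 (Pearson r of 0.86, 0.86 and 0.84), to Fosb Usp15, Nr4a1 and Coa7 (0.80, 0.79 and 0.79), and to Fosl2 Vps37b, Rnf138 and Ier2 (0.93, 0.92 and 0.92). Jun was most like H3f3b, Bambi and Phax (0.88, 0.87 and 0.86), Junb like Rgs2, Dusp1 and Pja1 (0.93, 0.90 and 0.90) and Jund like Gm11175, Dnajb9 and Pim3 (0.90, 0.87 and 0.87). Batf was closest to Gm29216, Gpx1 and Mrpl30 (0.93, 0.93 and 0.92), Atf3 to Nbas, mt-Nd1 and Slc7a1 (0.84, 0.78 and 0.78), and Bach2 to Tmem42, Parp8 and Dyrk2 (0.95, 0.94 and 0.94).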

How the data were processed

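The deposited signal values are normalized counts. According to the methods, the authors used Trimmomatic (0.32) for trimming, Bowtie2 (2.3.2) and mm10 for alignment and RSEM (1.2.31) for estimated counts, which DESeq2 then scaled by its median of ratios. Within a library 43.8 to 45.7% of values were whole multiples of the smallest step (within 0.02), so read counts could not be recovered and no count model was fitted. The table holds 26 libraries, mapped to groups by their titles. The columns of the TG6 late libraries (TG6B) differ from the titles (TG62B) and were matched by line, stage letter and replicate number. Depth in reads is not given by the values.

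Here log2(value + 1) was fitted with limma (3.58.1, R 4.3.3): 9 group means, 17 residual degrees of freedom, a trend in the prior variance, Benjamini-Hochberg adjustment per comparison. The model was also run on simulated data. False calls were counted there only among genes without an effect of the mouse, so its behaviour for genes with such an effect was not tested. The main fit treated the 26 libraries as independent, although up to 3 of them came from 1 mouse. Its spread was pooled over the 9 groups, so that a mouse entered it up to 3 times. For members called for replicate number, the p-values of that fit between lines may thus be too small. The random block used 1 correlation (0.28) for all genes. Lengths and positions are from GENCODE vM21 (GRCm38) and promoters from RefSeq (GRCm38.p6). Protein sequences were not used here.

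The members and lists were chosen with earlier results of these data known. Genes named are the 9 members, up to 2 called genes per list and comparison with the largest change, and the 3 genes most like each member. Genes named only in counts, and the genes named for single mice or markers, were chosen after their values were seen. The motifs TGACATCA, TATAAA and TGACG, the test of replicate number (F with 6 degrees of freedom) and the fits that leave out a mouse were also added after the values were seen.

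Pairing by mouse comes from the series design and the shared replicate numbers, although TG6 late libraries carry a different title stem. Deviations from group means correlated between same-numbered libraries at 0.11 to 0.34 in F5 (9 of 9 pairs over 0.1), 0.02 to 0.18 in OT-1 (5 of 9) and 0.02 to 0.27 in TG6 (2 of 7). The block was fitted as random over all libraries (consensus correlation 0.28) or as fixed within a line. Other alternatives were pseudocounts of 0.1 and 5, other filters and scalings, fits on the compared groups alone, and leaving out each library.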

Additional observations from a re-analysis of the deposited data

Results flagged for a closer look

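Of the genes described, 2 list genes changed differently from early to late in OT-1 and TG6, by the limma interaction. Nfatc3, a calcium-regulated factor that binds beside AP-1, fell less in OT-1, by a log2 difference between the steps of 1.06 ± 0.21 SE (adjusted p = 0.0083). Prkcq rose less in OT-1, by -0.59 ± 0.15 (adjusted p = 0.041). None of the 9 members differed in this way. No group held the 4 samples that a test for single outlying libraries would need.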

How the results depend on the processing

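No called change of a member turned its direction under the alternatives tried. Of the values of called members under the alternatives, replicate number included, 538 stayed called and 104 did not, and of those not called 2585 stayed so and 58 became called, and of the counts of members called 276 stayed within 1.5 times and 91 moved; the cause was not tested. Batf in OT-1 against F5 at each stage and against TG6 early and late, Bach2 from early to late in each line, Fosl2 and Junb in OT-1 against TG6 early, and Fos in OT-1 against TG6 late were called under each alternative tried.

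A pseudocount of 5 and a mean of at least 50 each left 1 member called in OT-1 against F5 mature. Without a filter, 1 was called in that comparison, 1 in F5 against TG6 late, 1 in TG6 from early to late and 0 in OT-1 from late to mature. Quantile normalization gave 1 in F5 against TG6 late and 0 mature. A prior variance without trend gave 1 in F5 against TG6 late, 1 in TG6 from early to late and 0 in OT-1 from late to mature. Fits on the compared groups alone gave 6 in OT-1 against TG6 late and 0 mature, 1 in OT-1 against F5 early and 1 mature, 0 in F5 against TG6 late and 0 mature, 1 in TG6 from late to mature, 1 in F5 from early to late, 0 in F5 from late to mature and 2 in OT-1 from early to late.

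With the mouse as a random replicate block, 2 were called in F5 against TG6 mature and 2 in F5 from late to mature. With the fixed block, 5 were called in TG6 and 3 in OT-1 from early to late, 3 in OT-1 from late to mature and 3 in the late to mature difference of OT-1 and TG6. The calls that either block changed stand beside the results.

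Leaving out 1 library or 1 mouse gave 4 to 6 members in OT-1 against TG6 early, 2 to 4 late and 1 to 2 mature, 1 to 6, 1 to 5 and 1 to 4 in OT-1 against F5, and 0 to 1, 0 to 2 and 0 to 1 in F5 against TG6. From early to late it gave 1 in TG6, 3 to 4 in F5 and 1 in OT-1, from late to mature 0 to 2, 1 to 2 and 0, and for replicate number 4 to 8. Scaling to equal totals moved the median of all genes by up to -0.14 (log2, OT-1 against F5 mature). It turned the balance of all calls, from 2520 higher and 2035 lower to 1938 and 2805 in OT-1 against TG6 early and from 2174 and 1647 to 1365 and 2600 in OT-1 against F5 mature. With 2 or 3 libraries per group, the standard errors of log2 fold changes between groups were 0.85 to 1.34 for Jun, Fosl2 and Fosb, against 0.16 to 0.18 for Batf, and Atf3 values lie near 0.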
